A study of Mus musculus with 4 samples.

Results

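The rodent miR-297, miR-466, miR-467 and miR-669 microRNAs (miRNAs) were examined by quantitative PCR in mouse lung. Members were the assays whose miRBase name (release 14, a miRNA catalogue) begins with one of these family names and carries no star, the mark of the rarer passenger strand of a hairpin. The rule found 27 of 750 miRNA assays, namely 2 of miR-297, 8 of miR-466, 7 of miR-467 and 10 of miR-669. RNA came from the right lung of mice in 4 groups with 1 library each. Newborns, less than 12 h old at the start and 3 days old at collection, and adults, 2 months old, were kept for 72 h either in room air or in 95% oxygen (hyperoxia). No genotype or treatment other than the atmosphere is labelled, and no source used here gives the strain, the sex or the number of animals behind a library. Differences between single libraries therefore carry no replicate check. Where a sentence lists 4 values, the neonate comes before the adult and, at each age, room air before hyperoxia.

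A miRNA is a short RNA that guides the silencing of messenger RNAs, which it recognises mainly through its seed near the 5′ end. Most members of these families are made from a dense array of hairpins in an intron of Sfmbt2, a Polycomb-related gene that is expressed from the paternal allele in mouse placenta, where loss of the array impairs placental growth. The array is known from mouse embryonic stem cells and trophoblast, and it arose within rodents by repeated duplication. Related hairpins lie elsewhere in the mouse genome, many of them in stretches of alternating bases. The deposited table names miRNAs and gives no positions, so loci were looked up by name in RefSeq gene annotation of GRCm38.p6. There, 72 of 82 hairpin genes of these families lie within the span of Sfmbt2, with 5 of miR-297, 24 of miR-466, 14 of miR-467 and 29 of miR-669, and 12 times a miR-467 hairpin is followed directly by a miR-466 and then a miR-669 hairpin. By name, 21 members belong to Sfmbt2 and 5 (miR-466j, miR-466k, miR-467f, miR-467h and miR-669n) to hairpins elsewhere, while miR-466a-3p was not matched. Copy number differs among the members: miR-467a has 10 hairpin genes and miR-669a 12, all within Sfmbt2, whereas miR-467b and miR-669c have 1 each.

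RefSeq's table of mature sequences held 5 of the 27 members, which are those encoded outside Sfmbt2. They are shown because they make the repeat composition of the families visible and because 4 of them were measured in every library. All are written 5′ to 3′ with the seed (bases 2 to 8) in capitals.
miR-466k: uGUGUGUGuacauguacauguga
miR-466j: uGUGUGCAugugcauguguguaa
miR-669n: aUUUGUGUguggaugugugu
miR-467h: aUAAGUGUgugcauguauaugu
miR-467f: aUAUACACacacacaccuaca
In GRCm38.p6 they lie on the plus strand at chr3:85467396-85467418 (miR-466k), chr10:60960802-60960824 (miR-466j), chr3:115979905-115979924 (miR-669n) and chr9:115381898-115381919 (miR-467h), and on the minus strand at chr11:69635419-69635439 (miR-467f).

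No seed was shared among these 5. Of 1738 mature entries, 1 other held one of the seeds, miR-668-5p with that of miR-467h. Steps between neighbouring bases that read GU, UG, AC or CA made up 77.3% of miR-466k, 72.7% of miR-466j, 68.4% of miR-669n, 65% of miR-467f and 52.4% of miR-467h, against a median of 28.6% over all mature entries. miR-467f carries the AC form of the repeat, in an unbroken alternating run of 12 bases, and the other 4 carry the GU form, in runs of 7 to 9 bases. As a result miR-467f and miR-466k contain stretches of 10 bases that are perfectly complementary. miR-466j and miR-467h, from different chromosomes and families, share an identical run of 11 bases. Assays for such sequences can overlap in what they detect, and cross-detection was not tested here.

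The hairpins of miR-466k and miR-669n, shown because both mature forms were detected in all 4 libraries, follow with the mature miRNA in capitals. They lie on the plus strand at chr3:85467377-85467498 (miR-466k) and chr3:115979902-115979955 (miR-669n) of GRCm38.p6.
miR-466k hairpin: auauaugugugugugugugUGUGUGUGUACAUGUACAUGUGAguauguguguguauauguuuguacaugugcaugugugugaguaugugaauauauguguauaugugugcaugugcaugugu
miR-669n hairpin: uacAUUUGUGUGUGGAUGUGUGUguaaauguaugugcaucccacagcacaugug
The repeat steps make up 65.3% of the first and 60.4% of the second, so the repeat extends beyond the mature strand.

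Values are threshold cycles (Ct), the PCR cycle at which a signal crosses a set level, where a later Ct means less RNA and 40 means no crossing. Relative levels are log2 values that rise with the amount of RNA and are set against snoRNA202, a small nucleolar RNA. Assays amplify with different efficiency, so levels of different members are not ranked against each other. The 4 lung markers matched of 5 listed (miR-30a, miR-30d, miR-200b and miR-200c) were detected in every library at Ct 13.4 to 18.6. The plant control ath-miR159a crossed in no library. A technical SD came from 4 control RNAs read on both cards of a library: 0.256 log2 for the neonatal hyperoxia pair, 0.331 for the adult hyperoxia pair, 0.648 for age in room air and 0.949 for age in hyperoxia. It leaves out the spread between animals.

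The share of members detected in every library was close to that of all assays, and miR-467 was the family read most completely. With detection set at a Ct of 35 or below, 16, 20, 15 and 15 of the 27 members were detected in the 4 libraries. Over all 750 assays the counts were 477, 507, 468 and 468. In all 4 libraries 15 members (55.6%) were detected, against 56.8% of all assays, and 7 members were detected in none. Among the 7, miR-466h, miR-466d-5p, miR-669e, miR-669o and miR-669g had a Ct of 40 throughout. miR-466e-5p and miR-669h-5p crossed late in some libraries, at Ct 36.8 and at 35.5 to 39.9. Assays of the same families named for rat miR-466b and miR-466c also stood at 40 throughout.

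**Figure D1:**
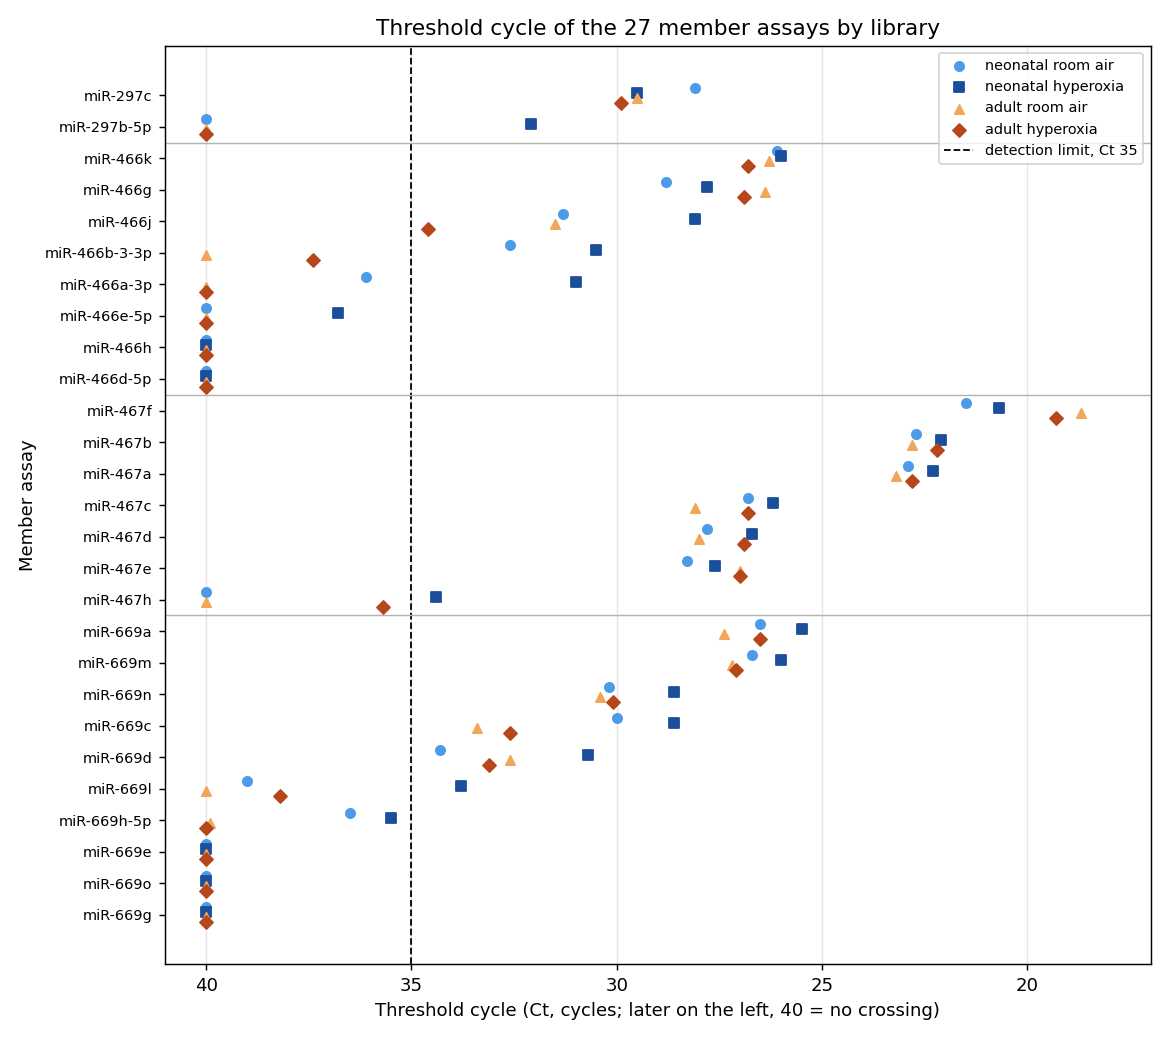
Threshold cycle (Ct, horizontal, earlier cycles to the right) of each of the 27 member assays (rows, grouped by family) in the 4 libraries (symbols, 1 library each); the dashed line is the detection limit of 35. Members detected throughout lie right of the line for all 4 symbols, and miR-466a-3p, miR-297b-5p, miR-467h and miR-669l lie right of it for neonatal hyperoxia alone.

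By family, 6 of 7 miR-467 members were detected in every library. miR-669 followed with 5 of 10, miR-466 with 3 of 8 and miR-297 with 1 of 2. The median Ct of detected members was 28.0, 28.0, 27.4 and 26.9, against 24.0 to 24.2 for all detected assays, so these miRNAs were read later than the typical assay. The second card, which carries 18 of the members, was read later in general, at medians from 25.6 upward against 21.8 to 22.5 on the first. Of the 5 members encoded elsewhere 4 were detected in all libraries, and of the 21 in Sfmbt2 11 were.

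Neonatal hyperoxia was the library with the most members. In it alone 4 of 27 (14.8%) were detected, compared with 18 of 750 assays (2.40%). On the second card the shares were 3 of 18 members (16.7%) and 11 of 375 assays (2.93%). The 4 were miR-466a-3p at Ct 31.0, miR-297b-5p at 32.1, miR-669l at 33.8 and miR-467h at 34.4. miR-466a-3p crossed at 36.1 in neonatal room air and not at all, at 40, in the adult libraries, which puts it at least 3.31 log2 higher in neonatal hyperoxia than in neonatal room air when Ct 35 is taken as the bound. miR-297b-5p was at 40 in the other libraries. In the libraries other than neonatal hyperoxia miR-669l was at 39.0, 40 and 38.2, and miR-467h at 40, 40 and 35.7. All 4 are late assays, for which no repeat measurement exists. At a Ct limit of 32 the shares detected in neonatal hyperoxia alone were 3 of 27 members (11.1%) and 15 of 750 assays (2.0%). Those 3 were miR-466a-3p, miR-466b-3-3p and miR-669d, so only miR-466a-3p of the 4 stayed. The shares of all assays were not matched for Ct, and members were read later than the typical assay. Some markers of other tissues, but not all, also differed between the same 2 neonatal libraries. The liver miRNA miR-122 stood at Ct 36.0 in room air and 27.6 in hyperoxia, and the neuronal miR-124 at 40 and 29.8. The heart miR-208a differed less, at 30.7 and 28.3. Other markers were nearly level: the brain miR-9 at 26.5 and 26.2, the heart miR-208b at 29.6 and 29.5, and the red cell miR-144 at 27.3 in both. The muscle miR-206 and the red cell miR-451 were read slightly later in hyperoxia. In the adult libraries miR-122 was at 32.8 and 28.3, and miR-124 at 29.8 and 26.3. The part of these markers in the result was not tested.

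A further member, miR-466b-3-3p, was detected in neonatal lung only, at Ct 32.6 in room air and 30.5 in hyperoxia, against 40 and 37.4 in the adult libraries. With Ct 35 as the bound, its adult minus neonatal difference in hyperoxia was -5.35 log2 or lower, and that of miR-466a-3p was -4.85 or lower. Both names denote the 3′ arm of a miR-466 hairpin.

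The question of age was whether these miRNAs differ between the lung of 3-day-old and 2-month-old mice. On the snoRNA202 scale most members were lower in the adult and none was 2-fold higher, with miR-669c lowest in room air at -5.26 and miR-466j lowest in hyperoxia at -7.34. In room air 8 of 15 members measured in both libraries were at least 2-fold lower, where 44.1% of 435 assays were, and 0 were 2-fold higher, where 15.9% were. The member median was -1.57 log2 and the median of all assays -0.72. In hyperoxia 10 of 15 were 2-fold lower (49.3% of 450 assays) and 0 higher (10.9%), with medians of -1.30 and -0.98. In whole lung, fewer cells of a type and less RNA per cell cannot be told apart. The 2 comparisons of age share no library with each other, but each shares a library with both comparisons of oxygen. Members also differed by card: the room air medians were -0.93 for 7 first-card and -2.04 for 8 second-card members, beside -0.39 and -1.20 for all assays of those cards.

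**Figure D2:**
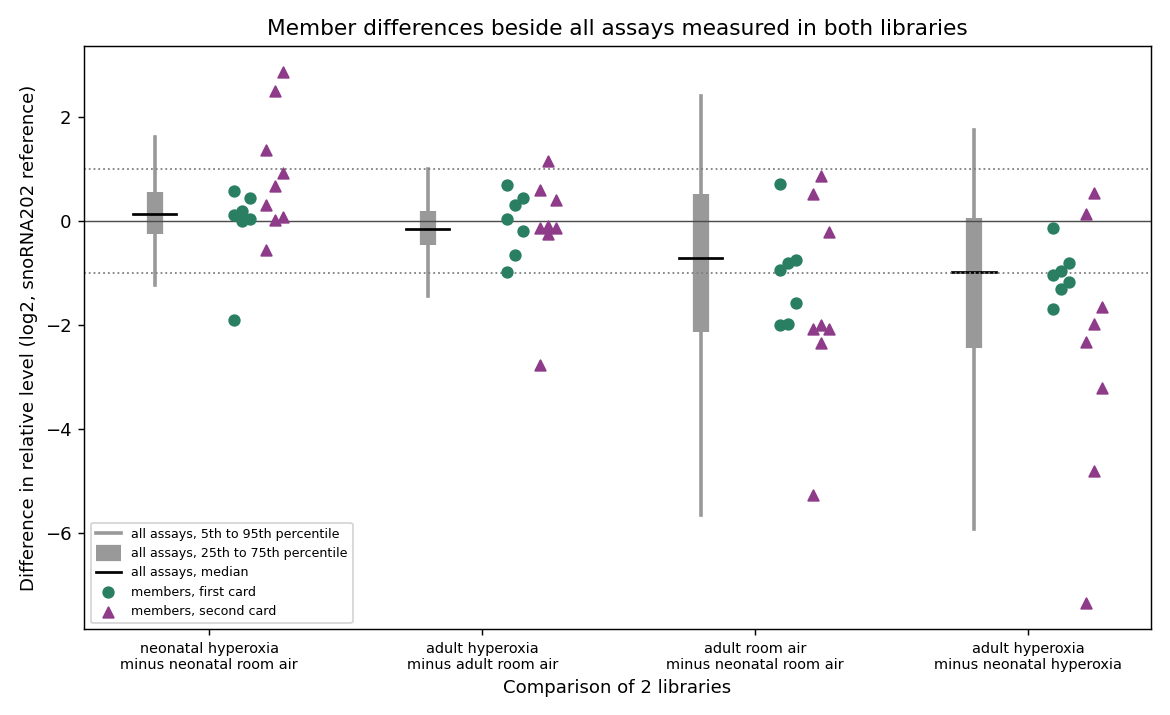
Difference in relative level (log2, vertical) between 2 libraries for each member detected in both (Ct up to 35; circles, first card; triangles, second card), beside the spread of all assays measured in both (grey); dotted lines mark 2-fold. Most members lie within the spread of all assays, with miR-669c at -5.26 for age in room air and miR-466j at -7.34 for age in hyperoxia lowest.

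An additive limma model of age and oxygen over the 4 libraries was fitted to all 426 assays detected in each, with Benjamini-Hochberg adjustment over all of them. Of 15 members, 5 fell with age, against 27.9% of all assays called lower, and 0 rose, against 4.46% called higher. All 5 fell in both atmospheres, which largely follows from the call, since the residual of this fit is the disagreement between the atmospheres. An unadjusted p under 0.05 in the fit was reached by 9 of 15 members, beside 211 of 426 assays. The split followed the reference: with U6, 6 members were called higher and 2 lower, beside 196 and 71 of all assays, and the median of all 426 went from -0.88 to 1.19. That median was -0.41 with snoRNA135 and snoRNA202 averaged, 0.30 after centring on library means and 0.38 after centring on card medians. Relative to the median of all assays, the member median was -0.75 with snoRNA202, -0.01 with U6 and between -0.76 and -0.61 with the other 4 scalings. The 5 were miR-669a, miR-669c, miR-669m and miR-669n of one family, and miR-466k.

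miR-669c, a single-copy hairpin of the Sfmbt2 array, had the largest fitted difference of the 15. Its relative levels in the 4 libraries were -14.66, -13.98, -19.93 and -18.78. Both adult libraries lay below both neonatal ones by more than 4 log2 units, and the ranges of the ages did not overlap. In the fit it fell by 5.03 ± 0.28 log2 (SE) at an adjusted p of 0.0152 (limma), and it was called lower under all 6 scalings tried, between -5.03 and -3.49. Its adult Ct values, 33.4 and 32.6, are late. Among all 426 assays, those called lower ranged from 71 with U6 to 128 with snoRNA202 of the own card. How many assays were called lower under all 6 scalings was not counted, and the scalings are not independent of each other.

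The other miR-669 members that fell did so by less. miR-669m, which has 2 hairpin genes, stood at -11.39 and -11.38 in the neonatal libraries and at -13.75 and -13.35 in the adult ones, room air first. It fell by 2.16 ± 0.27 (limma, adjusted p = 0.0328), and was called lower under 5 of 6 scalings. miR-669n, whose hairpin is shown above, stood at -14.92 and -14.00 in the neonate and at -16.92 and -16.33 in the adult. It fell by 2.16 ± 0.26 (limma, adjusted p = 0.0316), and was called under 4 scalings. Both lay below 0 under all 6. miR-669a, reported to restrain muscle differentiation in cardiac progenitors, stood at -12.41 and -11.97 in the neonate and at -13.98 and -13.66 in the adult, and fell by 1.63 ± 0.24 (limma, adjusted p = 0.0423). It was called lower under 2 of 6 scalings, with snoRNA202 as deposited or of the own card, and rose by 1.18 with U6. The call was lost with snoRNA135 and snoRNA202 averaged (-1.04), library means (-0.79), card medians (-0.23) and any Ct below 40. miR-669d missed the threshold, at -1.70 ± 0.97 (limma, adjusted p = 0.270), with levels of -18.95 and -16.09 in the neonate and -19.16 and -19.29 in the adult.

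In the miR-466 family miR-466k fell, and miR-466g was not called. miR-466k stood at -10.79 and -11.34 in the neonatal libraries and at -12.86 and -13.00 in the adult ones, and fell by 1.87 ± 0.27 (limma, adjusted p = 0.0421). It was called lower under 3 of 6 scalings and lay below 0 under all 6. miR-466g stood at -13.53 and -13.22 in the neonate and at -13.00 and -13.09 in the adult, with a fitted 0.33 ± 0.27 (limma, adjusted p = 0.411); it was called higher with library means and with card medians. miR-466j stood at -15.98 and -13.47 in the neonate and at -18.06 and -20.82 in the adult. Its fitted difference of -4.71 ± 1.66 missed the threshold (limma, adjusted p = 0.133). The difference was -2.08 in room air and -7.34 in hyperoxia, and in the additive fit this gap enters the SE.

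In the miR-467 family no member was called with snoRNA202 as deposited, and 4 of the 6 directions turned with the reference. miR-467a, encoded by 10 hairpins, stood at -8.85 and -8.80 in the neonate and at -9.78 and -9.97 in the adult, a fitted -1.05 ± 0.25 (limma, adjusted p = 0.0768). miR-467b ran beside it at -8.65, -8.54, -9.39 and -9.35, a fitted -0.77 ± 0.24 (limma, adjusted p = 0.113). With U6 both rose, by 1.77 and 2.04; with card medians both also lay above 0, and with library means miR-467b did. miR-467c, at -12.71 in both neonatal libraries and -14.70 and -14.01 in the adult ones, had a fitted -1.64 ± 0.32 (limma, adjusted p = 0.0590) and lay above 0, at 1.17, with U6. It was called lower with snoRNA202 of the own card and with a Ct limit of 32. miR-467d stood at -13.73 and -13.15 against -14.54 and -14.09 (fitted -0.88), rose by 1.93 with U6 and lay above 0 with card medians.

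miR-467e and miR-467f had fitted values above 0. miR-467e stood at -14.26 and -14.07 in the neonate and at -13.56 and -14.21 in the adult, so its adult and neonatal ranges overlapped (fitted 0.29 ± 0.36; limma, adjusted p = 0.565). It was called higher under 2 of 6 scalings, at 3.10 with U6 and 1.69 with card medians. miR-467f, the member with the AC repeat, stood at -6.17 and -6.09 in the neonate and at -5.31 and -5.55 in the adult, where both values were higher. Its fitted 0.70 ± 0.26 missed the threshold (limma, adjusted p = 0.146), while under 3 of the 6 scalings it was called higher, up to 2.24. miR-467e, miR-467f and miR-466g lay above 0 under all 6 scalings. miR-297c, the member of its family detected in all 4 libraries, stood at -14.09 and -15.99 in the neonate and at -16.06 and -17.03 in the adult (fitted -1.50 ± 0.38; limma, adjusted p = 0.0815), and lay above 0, at 1.31, with U6.

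**Figure D3:**
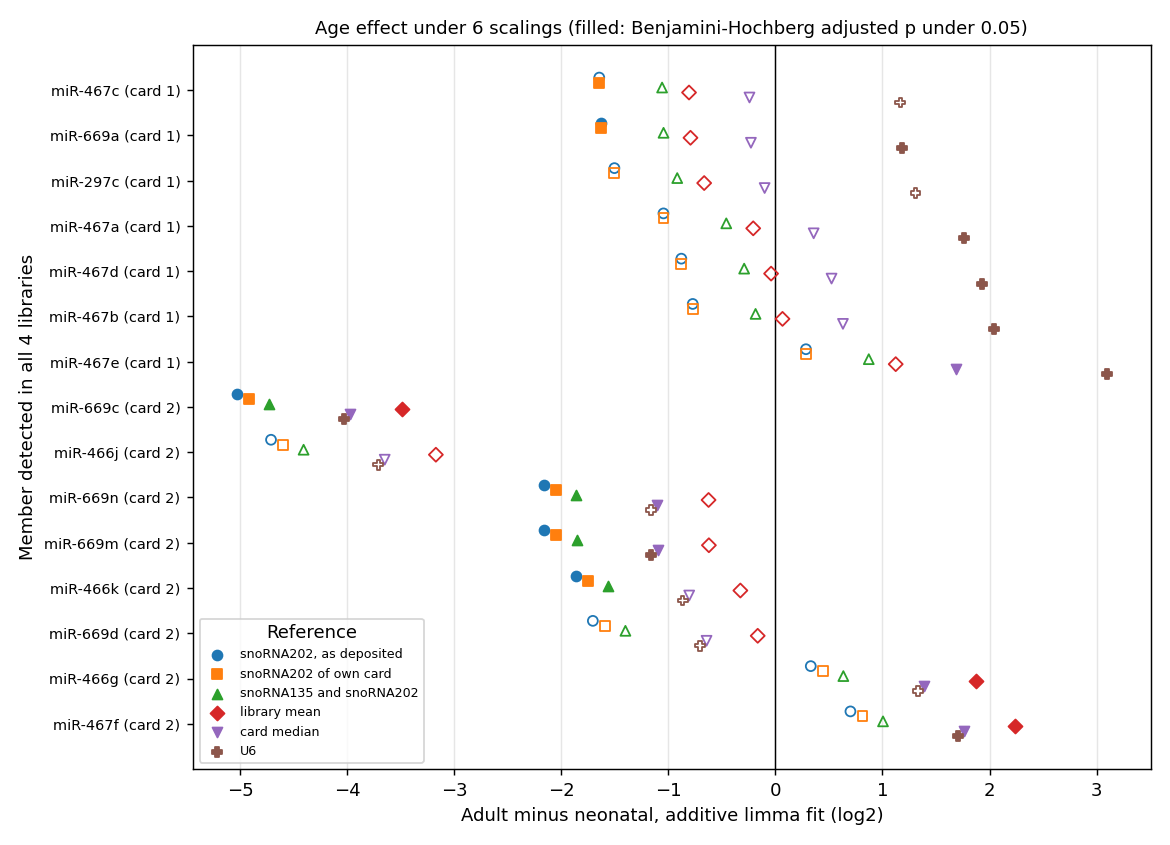
Adult minus neonatal level from the additive limma fit (log2, horizontal) for the 15 members detected in all 4 libraries (rows, by card), under 6 scalings (symbols; filled where the Benjamini-Hochberg adjusted p is under 0.05). miR-669c is filled at every scaling between -5.03 and -3.49, and the U6 symbols of first-card members lie above 0.

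Contrasts between members on the same card do not depend on a reference shared by that card. miR-669c minus miR-467f was -8.49 log2 in neonatal room air and -7.90 in neonatal hyperoxia, and -14.62 and -13.23 in the adult libraries, a change with age of -6.13 in room air and -5.34 in hyperoxia. Against miR-466g, another hairpin of the Sfmbt2 array, the change was -5.79 and -4.93. On the first card miR-669a minus miR-467e changed by -2.28 and -1.56. These pairs were picked from members far apart in their age difference, so a large change followed from the choice. Other pairs were not compared, and the adult Ct values of miR-669c, 33.4 and 32.6, are late. By locus, the room air medians were -0.93 for 11 members in Sfmbt2 and -2.04 for 4 encoded elsewhere. Locus and card cannot be told apart in these medians, since all 4 encoded elsewhere are on the second card and all 7 first-card members lie in Sfmbt2. On the second card alone the room air differences ran from -5.26 to 0.53 for 4 members in Sfmbt2 and from -2.08 to 0.86 for the 4 elsewhere.

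For comparison, the distal Dlk1-Dio3 miRNAs, another imprinted array, had a room air median of -5.42, with 20 of 22 measured assays 2-fold lower in the adult. The embryonic miR-290 and miR-302 miRNAs had a median of -1.34 with 4 of 6 lower. The differences between these lists and the members were not tested.

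The question of oxygen was whether 72 h of hyperoxia changed these miRNAs at either age. The limma model fits a single oxygen effect common to both ages, so it does not test the response of each age by itself. For that common effect no member was called (0 of 15, with 0.00% of 426 assays called higher and 0.00% lower). At an unadjusted p under 0.05 there was 1 member, miR-297c, and 13 of all assays. In neonatal lung 3 of 16 measured members were at least 2-fold higher after hyperoxia, where 13.6% of 469 assays were, and 1 was 2-fold lower, where 8.53% were. The member median was 0.25 and that of all assays 0.13. In adult lung 1 of 15 was 2-fold higher (5.13% of 448 assays) and 1 lower (8.04%), with medians of -0.09 and -0.14.

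The 3 higher members in the neonate were miR-669d at 2.86 log2, miR-466j at 2.51 and miR-466b-3-3p at 1.37, and all 3 are late assays of the second card. Among all assays whose later Ct of the pair lay above 30, 57.8% differed by 2-fold or more between the neonatal libraries, against 10.8% of those up to Ct 25. The 3 members with a Ct up to 25, miR-467a, miR-467b and miR-467f, differed by 0.05, 0.11 and 0.08, which is less than the technical SD. miR-297c was the lower one, at -1.90, and was also lower in adult hyperoxia, at -0.97. Its levels in hyperoxia lay below room air at each age, while the adult room air and neonatal hyperoxia values, -16.06 and -15.99, were nearly equal (limma, adjusted p = 0.963 for oxygen).

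miR-466j moved in opposite directions. It was higher after hyperoxia in the neonate, at 2.51, and lower in the adult, at -2.76, with Ct values of 31.3, 28.1, 31.5 and 34.6 in the 4 libraries. Both differences exceeded the technical SD, which was not measured for assays this late. In the adult pair miR-669c was 2-fold higher, at 1.15, and its neonatal difference was 0.68. With each well set against snoRNA202 of its own card that adult count of 1 became 0. The embryonic miR-290 and miR-302 miRNAs, which mark cells in which the Sfmbt2 array is known to be active, were all above 0 in the neonatal pair (6 of 6 measured, median 0.96, from 0.21 to 2.72), as were 275 of 469 assays in all. In the adult pair 4 of the 6 were above 0 (median 0.37, from -0.67 to 2.47), beside 171 of 448 assays. Of the 6 embryonic stem cell and trophoblast markers 5 were detected in every library, at Ct 24.7 to 34.3, and miR-290-3p in none. Their part in the member differences was not tested.

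The passenger strands of these families were measured by 4 assays, 3 of which were detected in all libraries. Names of the assays and of the miRNAs differ here: the assay sold as miR-467b reads the strand that miRBase release 14 calls miR-467b*, and the assay miR-467# reads miR-467b. An assay common to miR-297a*, miR-297b-3p and miR-297c* stood at -10.07 and -9.77 in the neonatal libraries and at -14.70 and -13.48 in the adult ones, with no overlap between ages. It fell by 4.17 ± 0.38 (limma, adjusted p = 0.0217), and was called lower under all 6 scalings. This passenger assay, on the second card, reads several strands together. Of their guides, miR-297c, on the first card, was not called (fitted -1.50), and miR-297b-5p was detected in neonatal hyperoxia alone. No miR-297a guide is among the members. Only miR-669c of the members shared a call under every scaling.

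On the snoRNA202 scale, guide minus passenger of miR-467a and miR-467b differed between the libraries. miR-467a* stood at -11.16, -8.98, -10.02 and -9.68, so the neonatal room air library was the lowest. It was 2.18 higher after hyperoxia in the neonate, where its guide was at 0.05, and 0.34 higher in the adult. Guide minus passenger was therefore 2.31 in neonatal room air and 0.18, 0.25 and -0.28 in the other libraries. miR-467b* stood at -11.80, -12.96, -10.77 and -10.49, higher in both adult libraries. Its guide minus passenger was 3.14 and 4.42 in the neonate and 1.38 and 1.14 in the adult. The fitted age difference of miR-467b* was 1.75 ± 0.51 (limma, adjusted p = 0.105), above 0 under all 6 scalings and called higher under 3, whereas that of the guide was -0.77.

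**Figure D4:**
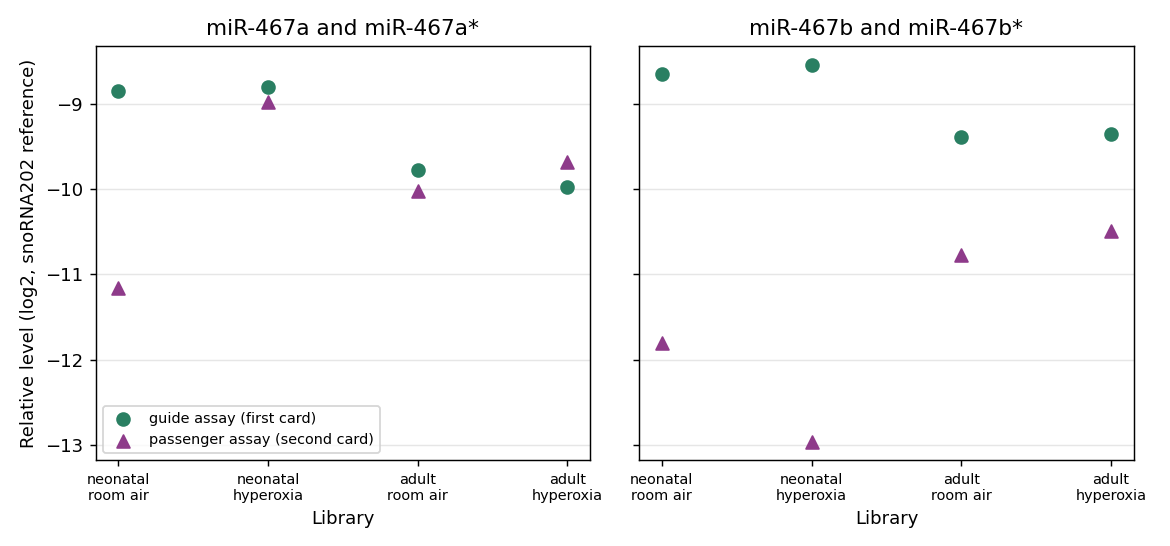
Relative level (log2 against snoRNA202, vertical) of the guide assay (circles, first card) and the passenger assay (triangles, second card) of miR-467a and miR-467b in the 4 libraries, with 1 value per library. The miR-467a* value of -11.16 in neonatal room air lies apart from the other 3, and miR-467b* is higher in both adult libraries than in both neonatal ones.

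The guide assays of this pair sit on the first card and the passenger assays on the second, so guide minus passenger moves with the reference of each card. Under each of the 6 scalings the miR-467a value was largest in neonatal room air, for example 4.19 with U6 against 1.48, 3.43 and 3.33 elsewhere. The miR-467b value was largest in neonatal hyperoxia under each, at 5.72 with U6 and 1.35 with each card centred. miR-467e* was detected in the hyperoxia libraries alone, at Ct 34.3 in the neonate and 30.1 in the adult. It did not cross, at Ct 40, in either room air library. When adult room air was set to Ct 35, the level in adult hyperoxia exceeded it by 5.23 log2 or more. The guide miR-467e differed by -0.65 in that pair. The neonatal value of miR-467e* is close to the detection limit, and no repeat measurement exists for this assay. Whether its room air wells failed was not tested. Among all assays whose later adult Ct lay above 30, 51.6% differed 2-fold between the adult libraries. How many assays were detected in hyperoxia alone was not counted.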

How the data were processed

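Per the labels' protocols, reverse transcription of lung total RNA used Megaplex primers (sets A and B), followed by preamplification and TaqMan assays on 2 cards. The authors deposited log2 values: Ct and, per the file headers, delta Ct, which is Ct minus that of snoRNA202. All 3072 Ct values were the same in both deposited tables. Software, thresholds and baselines: not given in the sources used here. In adult room air all 384 wells of the second card use the snoRNA202 of the first, which shifts second-card levels by -0.225 log2.

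The level is minus the deposited delta Ct. Assays with Ct of 35 or below in both libraries were compared at 2-fold (1 log2 unit), without a test. The additive model (limma 3.58.1, R 4.3.3, 426 assays, threshold 0.05) has 1 residual and 1.57 prior degrees of freedom. It takes the oxygen effect as equal at both ages. The model was run on simulated data without an oxygen effect, where the pass rule covered only the largest planted age differences. Its limma p-values reflect only how these 4 samples vary, which may be technical. No read depth exists. The technical SD is the root mean square gap between cards over the square root of 2. Loci and sequences are from RefSeq (GRCm38.p6), by name.

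Members and lists were chosen with earlier results of these data known. Levels are given for members with a Ct up to 32 in any library, past 2-fold at such Ct in both of a pair, or called; the others named were named after their values were seen. Alternatives were 5 references and 2 detection limits.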

Additional observations from a re-analysis of the deposited data

Results flagged for a closer look

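miR-466j differed in its response to hyperoxia between the ages. Its level after hyperoxia minus that in room air was 2.51 log2 in the neonatal pair and -2.76 log2 in the adult pair. The difference between the ages was not tested, since each group has 1 library.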

How the results depend on the processing

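The reference RNA decided most age results, and the cause was not tested. Medians and counts of 2-fold differences are given for adult minus neonatal in room air, then in hyperoxia. With U6 the member medians were 1.08 and 1.20, with 8 and 8 members higher and 2 and 6 lower, and for age 6 members were called higher and 2 lower. In room air miR-297c turned to 0.68, miR-467c to 0.66 and miR-669a to 1.08; in hyperoxia miR-297c turned to 1.94, miR-467a to 1.81, miR-467c to 1.68 and miR-669a to 1.28. The fitted age effects then were 1.77 for miR-467a, 1.93 for miR-467d, 1.18 for miR-669a and 2.04 for miR-467b. With each library centred on its mean the medians were -0.40 and -0.04, with 4 and 3 higher, 4 and 3 lower, and 2 called higher and 1 lower for age; in hyperoxia miR-297c was at 0.22 and miR-467a at 0.09. With each card centred on its median the medians were -0.43 and 0.36, with 3 and 3 higher, 2 and 4 lower, and 3 called higher and 3 lower; in hyperoxia miR-297c was at 0.62, miR-467a at 0.50 and miR-467c at 0.36. With snoRNA135 and snoRNA202, 2 were higher in room air and 6 lower in hyperoxia. With snoRNA202 of the own card, 1 was higher in room air. miR-669c was called lower under all 6 references, and no reference or detection limit gave a member called for oxygen.

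After hyperoxia in the neonate, U6 gave a median of 0.51 and 5 members higher, a Ct limit of 32 gave 1 higher and any Ct below 40 gave 5. In the adult pair the count higher was 0 with U6, with snoRNA135 and snoRNA202, with the own card and with the Ct limit of 32, and 2 with library means; the count lower was 0 with that Ct limit. At any Ct below 40, 3 members were called lower for age (miR-669c, miR-669m and miR-669n), and at a limit of 32 there were 5, without miR-669c, whose adult Ct exceeds 32, and with miR-467c. The other 82 counts and medians computed under alternatives stayed within 1.5 times or the technical SD. No paired analysis was possible because each group has 1 library, and leaving out a library leaves the additive model no residual degrees of freedom. Late assays limit the precision: of those with a later Ct above 30, 57.8% of neonatal and 51.6% of adult oxygen pairs differed 2-fold.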
